A study of Mus musculus with 6 samples.

Results

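Interleukins and the tumor necrosis factor (TNF) superfamily are the secreted or membrane-bound signals through which immune cells, stromal cells and muscle stem cells (MuSCs) exchange instructions, together with the receptors that read them. The genes described here were chosen by a rule on symbols, with earlier results of these data known. The rule takes every gene whose symbol begins with Il and a number, begins with Tnfsf or Tnfrsf, or is Tnf, Lta or Ltb. The rule matched 121 of the 49671 genes in the files under 119 distinct symbols, because Il11ra2 is listed under 3 identifiers. Of the 121 genes, 63 encode receptor chains, 55 encode ligands or soluble antagonists, and 3 are an enzyme or antisense genes named after a family member. They were divided by level rather than by treatment. A mean of 10 or more expected counts over the 6 libraries marks a gene as measured, and a lower mean as near the detection floor.

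Most interleukin receptors are assembled from a ligand-specific chain and a chain shared with other cytokines, such as gp130 for the IL-6 family or the common gamma chain for IL-4 and IL-15, and signal through JAK kinases and STAT proteins. IL-1 family receptors signal through MYD88 and IRAK kinases, and TNF receptors signal through TRAF adaptors or death domains to NF-κB or to caspases. In injured muscle these cytokines are best known as products of infiltrating leukocytes. Stem cells of the muscle carry some of the receptors, among them Fn14, the receptor of TWEAK.

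RNA-Seq was performed on MuSCs sorted from the tibialis anterior (TA) muscles of 6 female C57BL/6 mice aged 4 to 6 months, at day 3 after each TA received 50 μL of 1.2% BaCl2, a salt that kills myofibers. The 3 RvD1 mice received 100 ng of resolvin D1, a lipid mediator made from docosahexaenoic acid, by daily intraperitoneal injection in 0.1% ethanol, and the 3 vehicle mice received the 0.1% ethanol alone. Both TA muscles of a mouse were pooled into 1 library, so each library is a different animal and every library came from injured muscle. The sort gated on β1-integrin and CXCR4 and left out cells with the hematopoietic markers CD45, CD11b and Ter119 or the stromal marker Sca-1. The labels also list CD31 among the markers selected against, which the methods of the study do not.

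Total expected counts were 21368812, 28149176 and 17962025 in RvD1 replicates 1 to 3 and 16148026, 17779765 and 18755643 in vehicle replicates 1 to 3. RvD1 replicates 1 and 2 were thus the deepest libraries. Counts printed below by group are not scaled for this difference, whereas CPM, TPM and fold changes are. At these depths 3 counts correspond to 0.107 to 0.186 CPM, that is, counts divided by library size. This floor takes in counting error alone, since reads carry no molecular identifiers. All 12 myogenic markers were measured, with summed levels of 5965 to 6900 CPM with RvD1 and 5865 to 6496 CPM with vehicle. Of 10 neutrophil markers, S100a9, Ly6g, Retnlg, Ngp and Ltf were at 0 in every library, and the others were near the floor. Of 14 T, B and NK cell markers, Cd3d, Nkg7 and Klrb1c were at 0. Cd79a and Lck were measured, with means of 19.5 and 16.7 counts, and the others were near the floor. Macrophage markers were present at a low level, given further below. Markers of fibro-adipogenic progenitors, which are stromal cells, had the highest sum among the lists of other cell types. They were at 1300 to 2463 CPM with RvD1 and 1537 to 1657 CPM with vehicle. Which cells carried these transcripts was not tested.

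A larger share of the receptor genes than of the ligand genes lay above the floor in these cells. Of the 121 genes, 43 were measured, 58 were near the floor, and 20 had 0 counts in every library. A further 20 genes were at or under 3 counts in every library. Over all genes in the files, 14599 of 49671 were measured and 22860 had 0 counts throughout. Among the 63 receptor genes, 30 were measured, 27 were near the floor and 6 were at 0. Among the 55 ligand genes, 13 were measured, 28 were near the floor and 14 were at 0. Genes at 0 included Il12b, which encodes a chain of IL-12 and IL-23, Il13 and Il5, the classical type 2 cytokines, Il17a, Il1a and Il3. For such genes the depth of each library allows a level of up to its own 3-count floor, so they were not detectable at this depth.

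**Figure D1:**
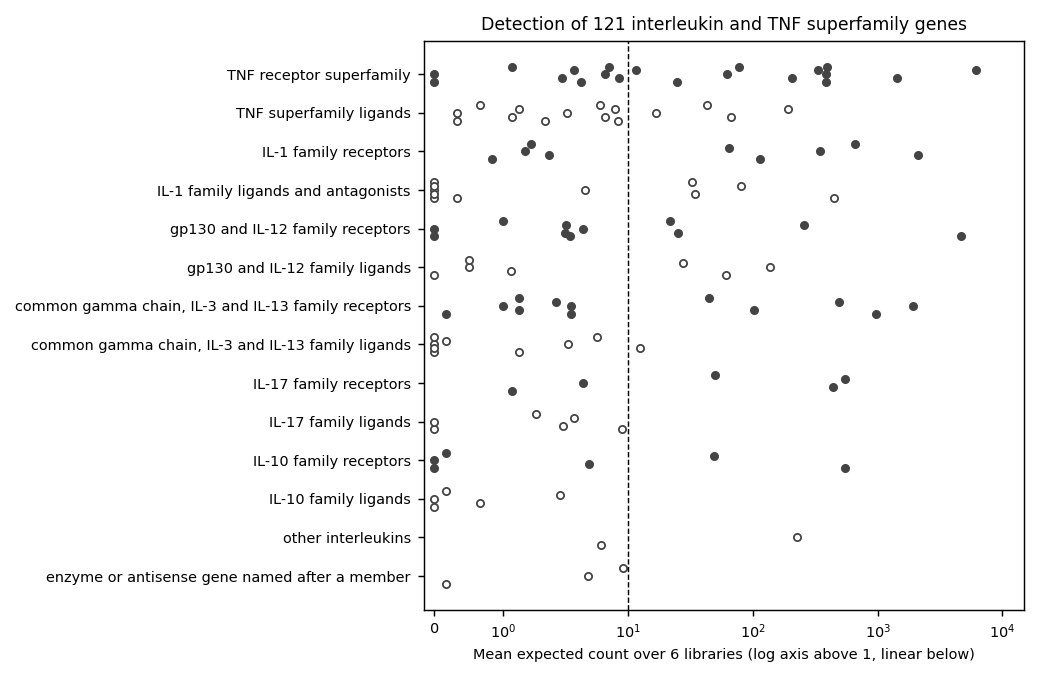
Mean expected count over the 6 libraries (horizontal axis, log above 1) of each of the 121 genes, grouped by family and role, with receptor genes filled and all other genes open. The dashed line marks 10 counts, above which 30 of 63 receptor genes and 13 of 55 ligand genes lie.

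The summed level of the 121 genes was 1319, 1026 and 1060 TPM (transcript abundance scaled for length and library total) in RvD1 replicates 1 to 3 and 1126, 1010 and 940 TPM in vehicle replicates 1 to 3. The groups overlapped, with means of 1135 ± 160 TPM (SD, n = 3) and 1025 ± 93.8 TPM (SD, n = 3). Receptor transcripts made up 92.6% ± 0.749 of this sum with RvD1 and 91.9% ± 0.357 with vehicle. Ligand transcripts summed to 81.0 ± 3.02 TPM with RvD1, against 81.5 ± 4.44 TPM with vehicle. The 58 genes near the floor together contributed 7.54 to 14.9 TPM in a library.

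A single receptor accounted for about as much transcript as all the other genes together. Tnfrsf12a, which lies at chr17:23675445-23677468 on the minus strand of GRCm38 and encodes Fn14, was at 675, 541 and 508 TPM with RvD1, against 598, 533 and 489 TPM with vehicle. That is 50.6% ± 2.40 of the summed level of the family with RvD1 and 52.6% ± 0.565 with vehicle (SD, n = 3). The lowest of its 6 values lay above the highest value of any other member, 112 TPM of Il6st in RvD1 replicate 1. Its ligand TWEAK is encoded by Tnfsf12, which averaged 1.04 TPM and 16.7 counts. In the plot of levels by library, the genes below Tnfrsf12a form a continuous series. Il6st (mean 75.0 TPM), Tnfrsf1a (56.4 TPM), Il13ra1 (42.8 TPM), Il1r1 (36.3 TPM) and Il17rc (34.4 TPM) followed, and the library values of each overlapped those of the next. Il2rg (26.2 TPM), Il10rb (24.9 TPM), Il4ra (19.0 TPM) and Il11ra1 (15.7 TPM) completed the 10 most abundant, all of which encode receptor chains. Il33 was the most abundant ligand at 14.7 TPM.

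**Figure D2:**
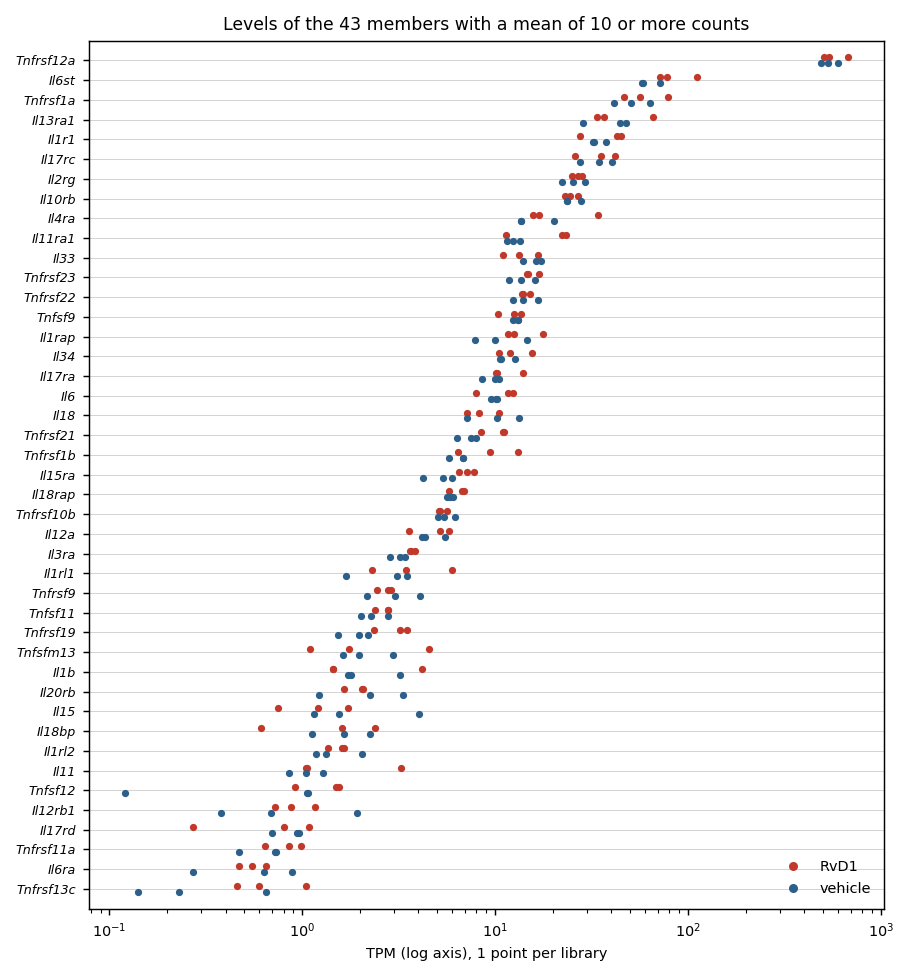
TPM (horizontal log axis) of the 43 measured genes, 1 point per library, RvD1 in red and vehicle in blue, ordered by mean. Tnfrsf12a lies between 489 and 675 TPM, apart from all the others, and the points of the 2 groups are intermingled in most rows.

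Within the TNF receptor superfamily, 11 of 20 genes were measured, 7 were near the floor, and Tnfrsf8 and Tnfrsf17 were at 0. Tnfrsf1a, which encodes the widely expressed TNF receptor with a death domain, was at 60.7 ± 16.5 TPM with RvD1, against 52.0 ± 11.4 TPM with vehicle. Tnfrsf1b, which encodes the TNF receptor without a death domain, was at 9.67 ± 3.37 and 6.46 ± 0.606 TPM. The death receptor gene Tnfrsf10b, which encodes the mouse TRAIL receptor, averaged 5.43 TPM and varied little, from 5.03 to 6.22 TPM. Tnfrsf22 and Tnfrsf23, which encode TRAIL receptors that lack a death domain, were at 14.3 ± 0.732 and 15.4 ± 1.28 TPM with RvD1, against 14.3 ± 2.15 and 13.9 ± 2.21 TPM with vehicle. Tnfrsf21, or death receptor 6, was at 10.2 ± 1.46 TPM with RvD1, against 7.27 ± 0.840 TPM with vehicle. Tnfrsf11b, which encodes the soluble RANKL antagonist osteoprotegerin, had 10, 9 and 15 counts with RvD1 and 3, 4 and 10 with vehicle, values too low to pass the count filter of the test.

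Reads of related or overlapping genes cannot always be told apart, and the members this touches are given with their sequence. Tnfrsf22 and Tnfrsf23 are neighbors on chromosome 7, and 20.6% of the 76-base words of Tnfrsf22 transcripts and 13.5% of those of Tnfrsf23 also occur in another gene of the GENCODE M21 annotation, 521 of them in common. Their longest identical coding stretch is 102 bases, which no 76-base read within it can assign. The stretch crosses 3 exons on the minus strand of GRCm38 within chr7:143638426-143640768 in Tnfrsf22 and chr7:143668582-143670848 in Tnfrsf23, and the capitals mark the 74 bases of the middle exon.
Tnfrsf22 and Tnfrsf23: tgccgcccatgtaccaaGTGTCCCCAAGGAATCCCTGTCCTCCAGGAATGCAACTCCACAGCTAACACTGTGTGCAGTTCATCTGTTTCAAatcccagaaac
The levels of these genes therefore depend in part on how RSEM, the quantification program used, divided such reads. Of the 43 measured genes, 31 share under 1% of their words with any other gene and 7 share 10% or more. Besides this pair, the 7 are Il11ra1 (35.6%), Il2rg (25.9%), Il10rb (12.8%), Tnfsf12 (45.8%) and Tnfsfm13 (67.2%), a readthrough gene that spans Tnfsf12 and its neighbor Tnfsf13.

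Among 15 TNF superfamily ligand genes, 4 were measured and 11 were near the floor. Tnfsf9, the ligand of 4-1BB, was the most abundant at 12.2 ± 1.68 TPM with RvD1, against 12.9 ± 0.393 TPM with vehicle. Tnfsf11, which encodes RANKL, the osteoclast differentiation factor, was at 2.65 ± 0.231 and 2.35 ± 0.392 TPM. Tnf itself had 6, 17 and 1 counts with RvD1 and 9, 0 and 3 with vehicle. Its values in the libraries of a group thus ranged more widely than its values between groups, and no fold change is given. Ltb and Lta, which encode the lymphotoxins, had means of 1.17 and 0.667 counts.

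Of the IL-1 family, 5 of 9 receptor genes and 4 of 11 ligand or antagonist genes were measured. Il1r1, the signaling IL-1 receptor, was at 38.5 ± 9.38 TPM with RvD1, against 34.1 ± 2.92 TPM with vehicle, and its coreceptor Il1rap at 13.9 ± 3.30 and 10.8 ± 3.45 TPM. The decoy receptor Il1r2 had a mean of 1.67 counts. Il33, an alarmin released from damaged cells, was at 11.0, 16.7 and 13.2 TPM with RvD1, against 17.2, 16.3 and 14.0 TPM with vehicle, and the IL-33 receptor gene Il1rl1 averaged 3.33 TPM. Il18 averaged 9.42 TPM and Il18rap, the accessory chain of its receptor, 6.15 TPM, whereas Il18r1, the ligand-binding chain, averaged 0.05 TPM from a mean of 1.5 counts. Il1b had 24, 28 and 58 counts with RvD1 and 21, 16 and 49 with vehicle, with replicate 3 the highest in both groups. Il1rn, which encodes the IL-1 receptor antagonist, had a mean of 4.5 counts.

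In the gp130 and IL-12 families, 4 of 11 receptor genes and 3 of 7 ligand genes were measured, and the shared chain was the most abundant in every library. Il6st, which encodes gp130, was at 87.2 ± 21.3 TPM with RvD1, against 62.7 ± 7.92 TPM with vehicle. Il6ra, the IL-6-binding chain, averaged 0.577 TPM. Il6 was measured at 12.4, 7.99 and 11.7 TPM with RvD1, against 9.52, 10.3 and 10.1 TPM with vehicle, so the vehicle values lay within the range of the RvD1 values. Il11, a gp130 ligand linked to stromal and fibrotic responses, averaged 1.42 TPM and its receptor gene Il11ra1 averaged 15.7 TPM. Il12a averaged 4.75 TPM while Il12b, its partner in IL-12, was at 0. Il12rb1 and Il12rb2, the chains of the IL-12 receptor, averaged 0.957 and 0.0917 TPM.

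Il11ra1, at chr4:41699989-41769474 on the plus strand, has a close copy in Il11ra2 on the same chromosome. Both coding sequences begin with the same 356 bases, of which the first 100 are printed because a read from them fits either gene. They lie at chr4:41763582-41763681 on the plus strand in Il11ra1 and at chr4:42661794-42661893 on the minus strand in Il11ra2, and the capitals mark the start codon.
Il11ra1 and Il11ra2: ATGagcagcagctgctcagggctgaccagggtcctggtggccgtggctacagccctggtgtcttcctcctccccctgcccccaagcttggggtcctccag
Few expected counts were assigned to the copies. Il11ra2 had 6.68, 1.62 and 0 expected counts with RvD1 and 0, 7.16 and 5.13 with vehicle, and the related gene Gm13305 had at most 3.35 in a library, against 427, 272 and 312 with RvD1 and 144, 175 and 201 with vehicle for Il11ra1.

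Among receptors of the common gamma chain, IL-3 and IL-13 families, 5 of 12 genes were measured, and of 9 ligand genes only Il15 was. Il13ra1 and Il4ra, which pair to form the receptor for IL-4 and IL-13 outside the lymphoid lineages, were at 45.5 ± 18.0 and 22.2 ± 10.2 TPM with RvD1, against 40.1 ± 10.2 and 15.8 ± 3.73 TPM with vehicle. Il2rg, the common gamma chain, was at 26.8 ± 1.67 and 25.7 ± 3.55 TPM. Il15ra, which presents IL-15, averaged 6.16 TPM, but Il2rb, the chain that signals with the common gamma chain for IL-15, averaged 0.107 TPM. Il15 had 9, 9 and 8 counts with RvD1 and 11, 8 and 30 with vehicle. Its mean of 12.5 counts rests on vehicle replicate 3, and it was the 1 measured gene that did not pass the count filter of the test. Scaled for depth it was at 0.407, 0.321 and 0.444 CPM with RvD1 and 0.681, 0.460 and 1.63 CPM with vehicle, so the groups did not overlap, with vehicle the higher. Of all genes tested, 4.84% were lower with RvD1 without overlap. Il4 had 3, 3 and 2 counts with RvD1 and 0 in all vehicle libraries, values at or under the 3-count floor from which no fold change can be given.

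Of 5 IL-17 receptor genes, Il17ra, Il17rc and Il17rd were measured, and of 6 IL-17 ligand genes none was. Il17rc and Il17ra, the chains of the IL-17A receptor, averaged 34.4 and 10.5 TPM. Il17d, another IL-17 family cytokine, was the highest of the ligands near the floor, with 12, 15 and 10 counts with RvD1 and 4, 8 and 5 with vehicle. These values were too low to pass the count filter of the test. In the IL-10 family, 2 of 6 receptor genes and none of the 5 ligand genes were measured. Il10rb, the chain that IL-10 shares with IL-22, was at 24.8 ± 1.97 TPM with RvD1, against 25.0 ± 2.51 TPM with vehicle, whereas Il10ra averaged 0.130 TPM and Il10 had a mean of 2.83 counts. Among the remaining interleukins, Il34, a second ligand of the CSF1 receptor, was at 12.7 ± 2.59 and 11.3 ± 1.15 TPM. Il4i1, a secreted amino acid oxidase named after IL-4, had 10.5, 7.31 and 14.9 counts with RvD1 and 3.08, 7.01 and 12.2 with vehicle.

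Set side by side, the shared chains Il6st, Il10rb, Il2rg and Il1rap were all measured, and several of their ligand-specific partners or ligands were not. For IL-18, IL-10 and IL-15, 1 chain of the receptor lay at 6.15 TPM or more while another lay at 0.130 TPM or less. For IL-13 and IL-17A, both receptor chains were measured and the ligand was at 0 in all 6 libraries. For IL-1 beta, IL-33, IL-6, IL-11, TWEAK, RANKL and the 4-1BB ligand, the ligand and the receptor chains considered were all measured. In bulk RNA, fewer cells of a type and less RNA per cell cannot be told apart, so the chains of a receptor need not lie in the same cells.

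**Figure D3:**
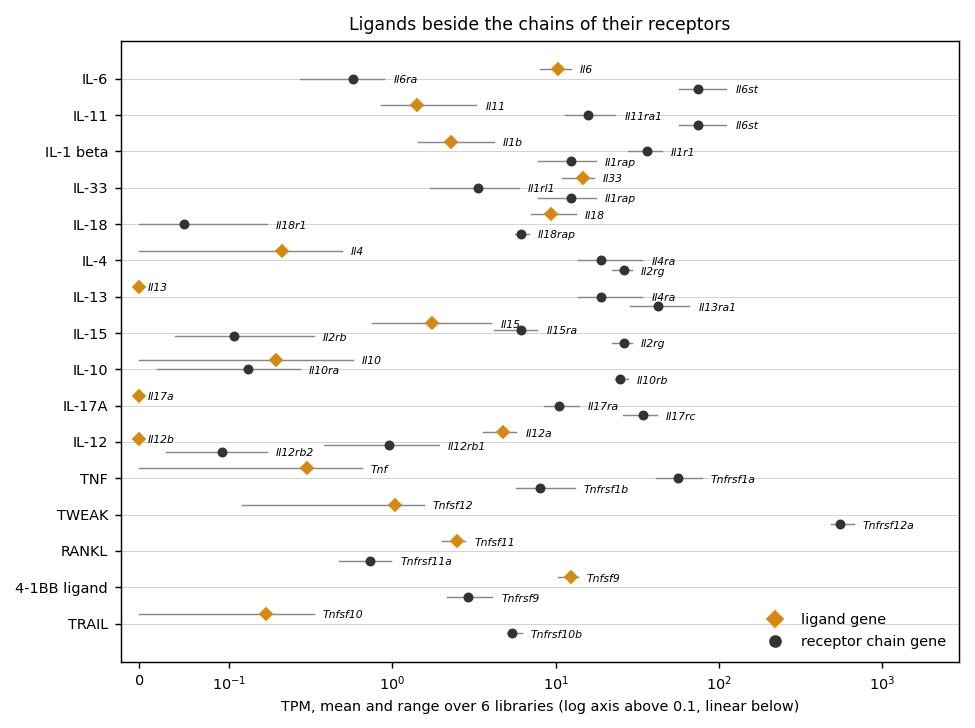
Mean TPM over the 6 libraries (points) with the lowest and highest library (lines) for 16 ligands and the receptor chains that bind them, on an axis that is logarithmic above 0.1 and linear below. Il18r1, Il10ra, Il2rb and Il12rb2 lie near 0.1 TPM or below, opposite partner chains that are higher, and Il13, Il17a and Il12b lie at 0.

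Whether RvD1 changed these genes was tested with edgeR's quasi-likelihood test on the 14494 genes that passed the count filter, of which 42 belong to the family. After Benjamini-Hochberg adjustment 0 of the 42 differed between RvD1 and vehicle, and the smallest adjusted p among them was 0.971. Over all genes tested the share called was 0%. At an unadjusted p under 0.05, 2 of the 42 (4.76%) passed in edgeR, both higher with RvD1, against 3.47% of all genes tested in either direction. Of all genes tested, 1.83% passed as higher and 1.64% as lower. DESeq2 and limma-voom likewise called 0 after adjustment, with 2 and 1 genes at an unadjusted p under 0.05. The median log2 fold change, RvD1 minus vehicle, was 0.083 over the 42 genes and 0.014 over all genes tested, and 27 of the 42 (64.3%) were positive against 53.5% of all genes. With other tools and scalings 23 to 30 of the 42 were positive.

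Tnfrsf21 and Il11ra1 were the 2 genes at an unadjusted p under 0.05. Tnfrsf21, at chr17:43016555-43089189 on the plus strand, encodes a death domain receptor studied in neurons and T cells. It was at 22.8, 18.6 and 23.4 CPM with RvD1 and at 17.5, 17.3 and 14.7 CPM with vehicle, and the groups did not overlap. Its log2 fold change was 0.39 ± 0.15 (SE), or 1.31-fold with a 95% interval of 1.04 to 1.65. The unadjusted p was 0.0279 and the adjusted p 0.971 in edgeR's test. Il11ra1 was at 19.3, 9.71 and 17.3 CPM with RvD1 and at 8.92, 10.03 and 10.9 CPM with vehicle. RvD1 replicate 2 thus lay within the vehicle range while the other RvD1 libraries lay above it. Its log2 fold change was 0.63 ± 0.25 (SE), with an unadjusted p of 0.0342 and an adjusted p of 0.971 in edgeR's test. It was 0.43 when RvD1 replicate 1 was left out and 0.88 when RvD1 replicate 2 was. The unadjusted p of Il11ra1 was above 0.05 with limma-voom, with the surrogate variable removed, on both TPM scales, and without any 1 library other than RvD1 replicate 2. That of Tnfrsf21 stayed under 0.05 with every tool and scale tried, and was above it without RvD1 replicate 1 or 3 or vehicle replicate 2 or 3.

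Il15ra was the other tested gene whose groups did not overlap, at 5.98, 4.82 and 6.38 CPM with RvD1 and 4.46, 4.37 and 4.18 CPM with vehicle. Its log2 fold change was 0.40 ± 0.21 (SE), with an unadjusted p of 0.0923 and an adjusted p of 0.971 in edgeR's test. Non-overlapping groups were found for 2 of 42 genes (4.76%), against 9.62% of all genes tested. Both were higher with RvD1, a direction that 4.77% of all genes tested showed without overlap, and 4.84% showed the opposite one. The count leaves out family genes that were not tested. Of these, Il15 was lower without overlap. Il17d, Tnfsf13, Il4, Il1rapl2 and Il31, all near the floor, were higher, Il31 from 1 count in each RvD1 library. Il4, Il1rapl2 and Il31 had 0 counts in every vehicle library. The lowest RvD1 value of Tnfsf13 was 0.113 CPM, against a highest vehicle value of 0.109 CPM. The shares above cover tested genes only. No share is available for genes that were not tested, so no direction is read from these. Il6st had the third smallest unadjusted p of the family (0.0628, edgeR's test, adjusted p 0.971), with 307, 213 and 239 CPM with RvD1 and 221, 208 and 193 CPM with vehicle. Only RvD1 replicates 1 and 3 lay above all vehicle values, and the log2 fold change of 0.29 ± 0.14 (SE) became 0.13 without RvD1 replicate 1.

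**Figure D4:**
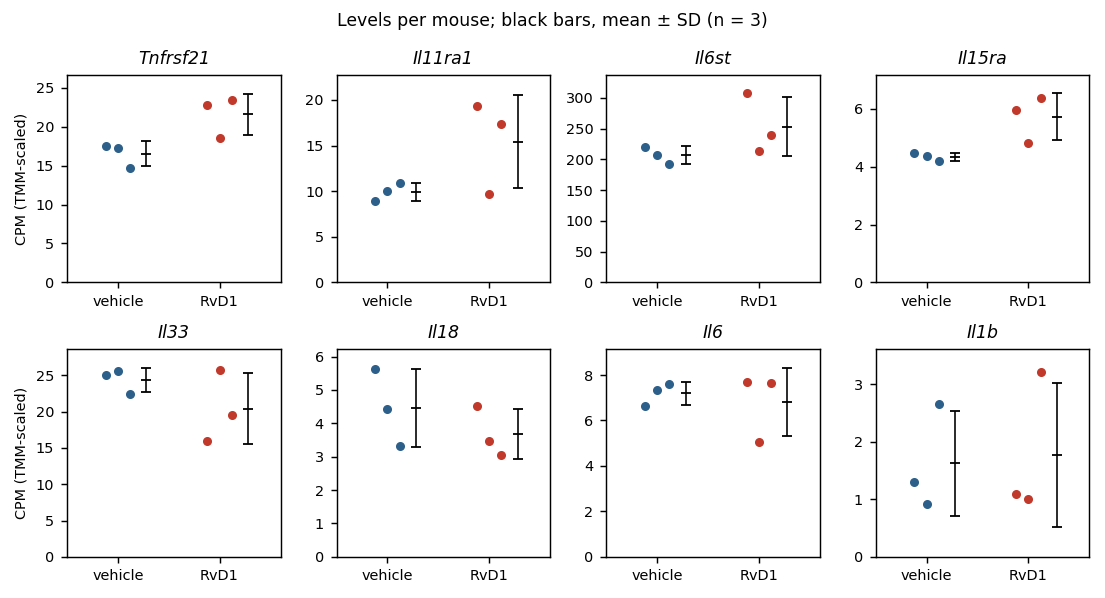
TMM-scaled CPM (vertical axes from 0) of 8 genes in each mouse, vehicle in blue and RvD1 in red, with black bars for the mean and SD of 3 mice. The groups do not overlap for Tnfrsf21 and Il15ra, and overlap for the other 6 genes.

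No gene with a negative log2 fold change reached an unadjusted p under 0.05. Il33 had the smallest p of these genes, at 16, 25.8 and 19.5 CPM with RvD1 and 25.0, 25.6 and 22.4 CPM with vehicle. RvD1 replicate 2 was the highest of the 6 libraries, and the log2 fold change was −0.25 ± 0.18 (SE, unadjusted p 0.194 and adjusted p 0.971 in edgeR's test). Il18 followed with −0.27 ± 0.28 and Tnfrsf10b with −0.16 ± 0.17 (SE). With 1 library left out, the log2 fold change ranged from −0.46 when RvD1 replicate 2 was dropped to −0.098 when RvD1 replicate 1 was dropped for Il33, from −0.45 (without vehicle replicate 3) to −0.070 (without vehicle replicate 1) for Il18, and from −0.25 (without vehicle replicate 1) to −0.063 (without vehicle replicate 2) for Tnfrsf10b. By role, all 5 tested IL-1 family receptor genes and all 5 tested genes of the common gamma chain, IL-3 and IL-13 receptors had a positive log2 fold change, with ranges of 0.0031 to 0.40 and 0.017 to 0.40, and none of the 10 passed the adjusted threshold. Under other scalings and tools 4 or 5 of each 5 were positive, and 3 to 5 with 1 library left out. In the other roles with tested genes, 7 of 11 TNF receptor superfamily genes, 3 of 4 TNF superfamily ligands, 2 of 4 gp130 and IL-12 family receptors, 1 of 3 of their ligands, 2 of 3 IL-17 receptors, 0 of 2 IL-10 family receptors and 1 of 4 IL-1 family ligands or antagonists were positive, as was Il34. In the alternatives that kept every library, 6 to 9 TNF receptors, 2 or 3 TNF ligands and 2 to 4 gp130 and IL-12 receptors were positive. So were 1 to 3 gp130 and IL-12 ligands and 1 IL-17 receptor, since Il17rc, at 0.0031, turned negative in each. The IL-10 family receptors and the IL-1 family ligands or antagonists each had 0 or 1. Over all genes tested the share positive was 53.5%, and the roles were drawn up after levels were seen. The 30 tested receptor genes had a median of 0.10 and the 12 tested ligand genes a median of 0.019.

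The cytokines and receptors best known from acute inflammation had intervals on both sides of 0. Il6 was at 7.70, 5.07 and 7.66 CPM with RvD1 and 6.63, 7.36 and 7.6 CPM with vehicle. Its log2 fold change was −0.085 with a 95% interval of −0.58 to 0.41, and its sign depended on the scale, since it was 0.073 on log2(TPM + 1). Il1b gave 0.09 with an interval of −1.20 to 1.38, which leaves room for more than a 2-fold change either way, and was −0.062 with limma-voom. Il1r1 gave 0.11 (−0.29 to 0.52), Tnfrsf1a 0.11 (−0.34 to 0.55) and Tnfrsf1b 0.22 (−0.15 to 0.58). Tnfrsf12a, the most abundant gene, had the tightest interval of the family, from −0.26 to 0.24 around −0.0077, a sign that turned on log2(TPM + 1) (0.083). The largest fitted differences belonged to genes of few counts. Tnfrsf13c, which encodes the BAFF receptor of B cells, had 25, 15 and 12 counts with RvD1 and 3, 12 and 3 with vehicle, for a log2 fold change of 1.15 ± 0.63 (SE). Tnfsf12 had 27.7, 21.9 and 21.9 counts with RvD1 and 14.4, 12.2 and 1.89 with vehicle, for 0.98 ± 0.61 (SE), or 0.48 without vehicle replicate 3. It shares 45.8% of its words with the readthrough gene Tnfsfm13, so these counts depend on how RSEM divided common reads. Tnfsfm13 had 92.0, 46.9 and 14.4 counts with RvD1 and 45.6, 26.9 and 33.1 with vehicle, for 0.11 ± 0.55 (SE). The part of that division in the difference was not tested.

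**Figure D5:**
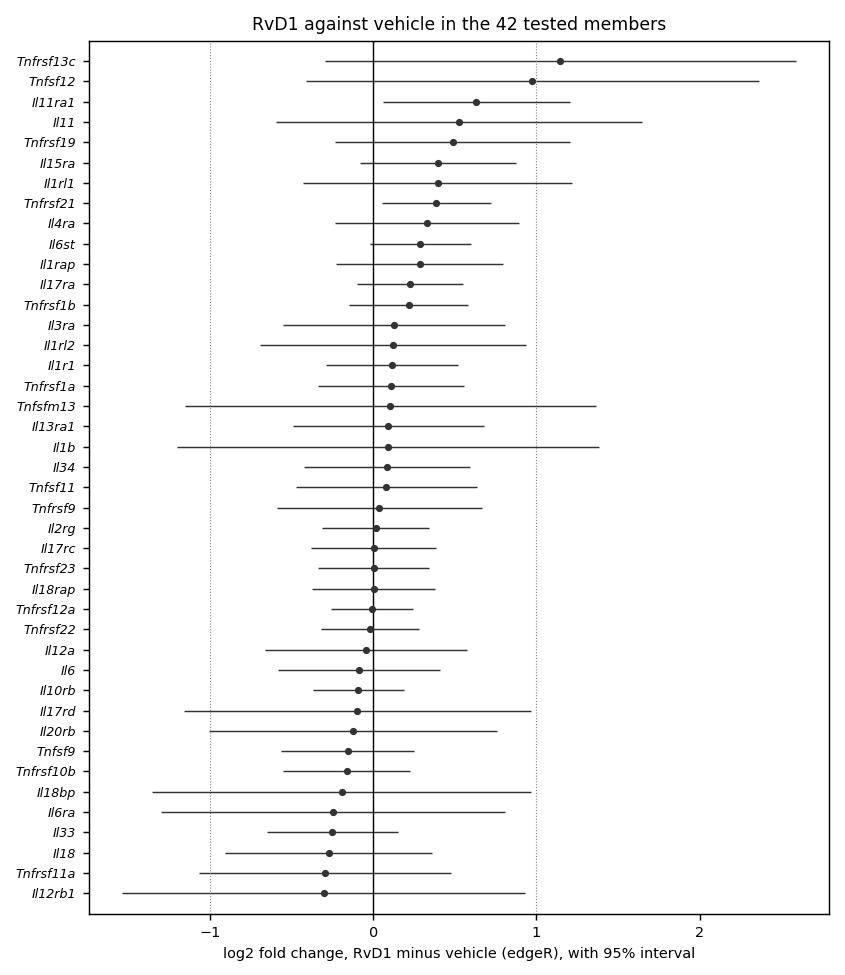
Log2 fold change, RvD1 minus vehicle, of the 42 tested genes (points), ordered by size, with dotted lines at a 2-fold change. The lines are 95% intervals computed from the F statistic of edgeR's test. The intervals of Il11ra1 and Tnfrsf21 alone lie on 1 side of 0, and 28 of the 42 lie wholly within the dotted lines.

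Both the level of a gene and its spread between mice entered the precision of these comparisons. Il13ra1, with a mean of 1917 counts, had a larger SE (0.26) than Tnfrsf22 (0.13), with a mean of 396 counts. The 95% interval of the log2 fold change had a median half-width of 0.56 over the 42 genes, from 0.25 to 1.44. It lay within a 2-fold change in either direction for 28 of the 42 genes, and for 22 of the 24 with a mean of 100 or more counts. Within groups, the median SD of log2 CPM was 0.29 for the 42 genes and 0.21 for all genes tested. The highest value of a gene fell in RvD1 replicate 1 for 17 of the 42, and the lowest in vehicle replicate 3 for 13. Among the 10 most abundant, RvD1 replicate 1 was the highest for 6, namely Tnfrsf12a, Il6st, Tnfrsf1a, Il13ra1, Il4ra and Il11ra1. The same counts were not made over all genes tested. Without RvD1 replicate 1, the log2 fold change of Il13ra1 moved from 0.09 to −0.25 and that of Il4ra from 0.33 to −0.012.

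Relatives of these genes that carry other symbols, and the proteins that act below the receptors, were read in the same fit. Of 15 relatives, 8 were tested and 0 passed the adjusted threshold. Only Ngfr, 1 of the 8, was at an unadjusted p under 0.05 (0.00778 in edgeR's test), against 3.47% of all genes tested. Ngfr, which encodes the low-affinity neurotrophin receptor, had 213, 229 and 142 counts with RvD1 and 95, 98 and 79 with vehicle. In TPM it was at 4.85, 3.88 and 3.91 with RvD1 and 2.82, 2.58 and 1.96 with vehicle. Its log2 fold change was 0.70 ± 0.20 (SE, adjusted p 0.971 in edgeR's test). Eda2r, a receptor for an ectodysplasin isoform, was the most abundant relative at 31.4 TPM, and Cd40lg and Cd70 were at 0. Of 30 adaptors and kinases below TNF and IL-1 receptors, 29 were measured and tested. Their median log2 fold change was 0.13, with 20 positive and 9 negative, against 53.5% positive over all genes tested, and 0 past the adjusted threshold. Birc2, a ubiquitin ligase bound to TRAF2, was the 1 gene of the 29 at an unadjusted p under 0.05, against 3.47% of all genes tested, with a log2 fold change of 0.40 ± 0.17 (SE) and an adjusted p of 0.971 in edgeR's test. Traf4 was the most abundant at 89.3 TPM.

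Levels of markers of other cell types are given because cells other than MuSCs are known sources of many of these cytokines and receptors. Of 20 monocyte and macrophage markers none was at 0, 18 were tested, and 17 of the 18 had a negative log2 fold change with a median of −0.49. Summed over the list, they were at 41.5 to 58.0 CPM with RvD1 and 60.1 to 102 CPM with vehicle. None passed the adjusted threshold in edgeR's test, and Lyz2, Ctss, Fcgr3, Tyrobp, C1qb and Ms4a7 were lower at an unadjusted p under 0.05, that is 6 of 18 against 1.64% of all genes tested. Ptprc, which encodes CD45, had 16, 6 and 24 counts with RvD1 and 22, 8 and 25 with vehicle. Of 10 endothelial markers 9 had a negative log2 fold change, and the sums of 19.7 to 32.1 CPM with RvD1 and 15.5 to 48.0 CPM with vehicle overlapped. Fibro-adipogenic progenitor markers summed to 2463, 1300 and 1647 CPM in RvD1 replicates 1 to 3 and to 1537 to 1657 CPM with vehicle. RvD1 replicate 1, the library with the highest value of 17 of the 42 family members, was thus also the highest for this sum. The sum rested mostly on Col3a1, with a mean of 26400 counts. In TPM, Col3a1, Dcn, Lum, Cd34 and Dpt were highest in RvD1 replicate 1. Pdgfra and Thy1 were highest in RvD1 replicate 3, and Ly6a, Pi16 and Clec3b in vehicle replicate 1. Among the markers tested, 7 of 8 were positive, the exception being Ly6a, which encodes Sca-1 (log2 fold change −0.62, unadjusted p 0.0141 in edgeR's test). The 14 T, B and NK cell markers summed to 2.32 to 3.58 CPM with RvD1 and 1.36 to 2.54 CPM with vehicle, and the 10 neutrophil markers to 0.535 to 1.16 and 0.495 to 0.707 CPM. The part of these cells in the levels of the interleukin and TNF superfamily genes was not tested.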

How the data were processed

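The authors aligned 76-bp single-end reads to mm10 with STAR 2.5.0a and quantified genes with RSEM, and the annotation is not given in the sources used here. The deposited expected counts are RSEM estimates not scaled for depth, and in the deposited TPM the authors also corrected for transcript length and library size. The deposited FPKM values were not used.

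Expected counts were rounded and tested with edgeR 4.0.16 (R 4.3.3) using TMM factors, filterByExpr by group, the quasi-likelihood test and Benjamini-Hochberg adjustment over all genes tested at 0.05. CPM values were TMM-scaled and TPM served for levels between genes. The replicates are different mice. Shared sequence was counted as identical 76-base words of GENCODE M21 transcripts on GRCm38, in which 49412 of 49671 identifiers and all 121 family members were found.

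Named genes were the 10 with the highest mean TPM, those at an unadjusted p under 0.05, the 3 with the smallest p in each direction, the 3 highest below 10 counts, and a set list of cytokines and receptors. Other members were named by symbol with their counts or levels. The members and the lists were chosen with earlier results of these data known, and the role groups and the ligand and receptor pairs after levels were seen. Alternatives were DESeq2 1.42.0, RLE factors, no count filter, limma-voom (limma 3.58.1) with and without 1 surrogate variable (sva 3.50.0), limma on log2(TPM + 1) and log2(TPM + 0.1), a replicate block, and leaving out each library. On simulated counts with 200 genes changed 4-fold, edgeR recovered 189 with 13 false calls among 14268 genes. The changed genes were drawn from those above a minimum mean count. The simulation thus gives no recovery rate for smaller changes or for genes of fewer counts.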

Additional observations from a re-analysis of the deposited data

How the results depend on the processing

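No gene of the family passed the adjusted threshold under any of the 14 alternatives, and the median log2 fold change stayed positive, from 0.032 with limma-voom to 0.14 on log2(TPM + 0.1), and from 0.035 to 0.14 with 1 library left out. Over all genes the median rose as well on the TPM scales, to 0.077 on log2(TPM + 1) and 0.087 on log2(TPM + 0.1). The number at an unadjusted p under 0.05, 2 as reported, was 6 of 101 without a count filter (4.29% of all genes), 1 with limma-voom (3.33%), 3 on log2(TPM + 1) (4.35%) and on log2(TPM + 0.1) (4.32%), and 18 of 101 after removal of 1 surrogate variable, where 11.2% of all genes passed. With 1 library left out it was between 0 and 5, 0 without RvD1 replicate 3 or vehicle replicate 3 and 5 without RvD1 replicate 2. The number of measured genes was then between 42 and 45. Both fits of 101 genes took in genes near the floor, which the count filter of the main test leaves out. The surrogate variable was removed from the values before a fit on group alone, without TMM factors. The p-values of that fit therefore make no allowance for the variable having been estimated from the same 6 libraries. The cause of the changes in these numbers was not tested.

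Same-numbered mice of the groups had correlations of their deviations of 0.31, −0.00071 and 0.13, which do not show that the numbers pair them. With the replicate number as a block, 5 genes passed at an unadjusted p under 0.05 (Il6st, Il1rap, Tnfrsf21, Il4ra and Il11ra1, all higher), against 6.18% of all genes, and none after adjustment.

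Of 23 named genes tested, 17 kept their sign in all 8 alternatives with every library, and 10 also with any 1 library left out. Il17rc, at 0.0031, was −0.0025 with DESeq2 and with RLE factors, −0.0019 without a filter, −0.025 with limma-voom, −0.051 with the surrogate variable removed, −0.0092 with the block, and −0.0053 and −0.0057 on log2(TPM + 1) and log2(TPM + 0.1). Il1b was −0.062 with limma-voom and −0.013 and −0.049 on the TPM scales. On those scales Tnfrsf12a was 0.083 on both, Il6 0.073 and 0.078, and Il6ra 0.018 with the smaller pseudocount. Il13ra1 was −0.038 with the surrogate variable removed.

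With 1 library left out, the log2 fold change lay between −0.25 and 0.25 for Il13ra1, −0.12 and 0.25 for Tnfrsf1a, −0.012 and 0.52 for Il4ra, −0.098 and 0.16 for Il17rc, and −0.11 and 0.071 for Tnfrsf12a. It lay between −0.013 and 0.31 for Il1r1, −0.19 and 0.091 for Il6, −0.092 and 0.13 for Il2rg, −0.12 and 0.27 for Il34, and −0.65 and 0.65 for Il1b. The ranges were −0.62 to 0.084 for Il6ra, −0.15 to 0.0028 for Il10rb and −0.014 to 0.24 for Tnfsf11. Depth limits the 58 genes near the floor. They entered only the fits without a count filter and with the surrogate variable removed, and no fold change of theirs is given here.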
